A study of Homo sapiens with 3 samples.

Results

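Solute carriers are membrane proteins that move amino acids, sugars, metals, ions, vitamins and metabolites across the plasma membrane and the membranes of organelles. The genes described here are those whose symbol has the form SLC, a family number, the letter A and a member number. Of 13479 genes in the deposited table, 165 entries matched, with 164 distinct symbols in 41 families. Carriers with other symbol forms, such as SLC35B1 or SLCO4A1, are outside this set. The study used EBC-1, an established line derived from a human lung squamous cell carcinoma, and counted capped RNA 5′ ends by CAGE (cap analysis of gene expression). Cells had been electroporated with 600 pmol of RAB11A siRNA 1, RAB11A siRNA 2 or a negative control siRNA, and the labels give 72 h after plating for all 3. Each siRNA is represented by 1 library, so the differences described are between single libraries and carry no replicate error. RAB11A is a small GTPase that directs membrane proteins, carriers among them, through recycling endosomes back to the cell surface.

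Carriers of a family share a fold and usually a class of substrate, and their number names that family. Amino acid carriers often work as exchangers, and the light chains of family 7 need the heavy chain SLC3A2 to reach the surface. Transcription of many amino acid carriers is raised by ATF4, a factor induced when amino acids run short or proteins misfold in the endoplasmic reticulum. Zinc importers form family 39 and zinc exporters family 30, while most of family 25 sits in the inner mitochondrial membrane. Transcript levels say nothing of how much carrier protein lies at the cell surface, which is the step RAB11A is known to act on.

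The siRNAs are shown by their sense strands, since every comparison turns on them and their 3′ ends recur below. Capitals mark the 7 bases that the antisense strand pairs with through its positions 2 to 8, the seed.
RAB11A siRNA 1: gcauccagguuGAUGGAAa
RAB11A siRNA 2: agcaagagcuuUUGCAGAa

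RAB11A itself, on chromosome 15, stood at 7.48 CPM with siRNA 1, 22.7 CPM with siRNA 2 and 135 CPM with control siRNA (CPM, tags scaled to a common library total). The siRNA 1 library held 5.53% of the control level and the siRNA 2 library 16.8%. Deposited values stepped by 0.04 CPM in all 3 libraries, so 1 tag is 0.04 CPM and 5 CPM is 125 tags. The tags summed over listed genes were 25204585 with siRNA 1, 25137457 with siRNA 2 and 25174787 with control. The library total recovered from the values was 24999950 tags in each library, the middle of the totals searched that matched equally well. The sums exceed this total, so some tags count for more than 1 gene and the sums are not library depths. How the 3 totals came to be equal was not tested, so counting errors cover the recovered tags only. CAGE counts 1 tag per 5′ end, so levels of different genes can be set side by side without a length correction. Of 15 squamous and epithelial marker genes, 6 were listed. KRT8, KRT18 and SFN were above control in both siRNA libraries, PERP was below it in both, and S100A2 and EPCAM were above with siRNA 1 and below with siRNA 2. Some of these differences were small beside counting error. With siRNA 2 the log2 ratios of (CPM + 1) were 0.003 for KRT8 and 0.03 for KRT18 (counting standard errors 0.022 and 0.021). With siRNA 1 and siRNA 2 they were 0.02 and -0.02 for S100A2 (0.08 each), and 0.02 and -0.14 for EPCAM (0.16 each). KRT18, a simple epithelial keratin and the highest of the 6 markers, stood at 475, 394 and 386 CPM for siRNA 1, siRNA 2 and control. TP63, KRT5, KRT14 and SOX2, which define squamous cells, were not among the values used here. Of 12 genes that mark other cells a tumour can hold (fibroblasts, vessels, immune and alveolar cells), 3 were listed, and their summed level was 24.4 CPM with siRNA 1, 34 with siRNA 2 and 48.04 with control. CD68, a lysosomal glycoprotein used as a macrophage marker, made up most of that sum, at 21.1, 31.4 and 45.2 CPM. COL1A1 and COL1A2 stayed at or below 2.28 CPM in all libraries, and the part of these markers in the results was not tested.

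A total of 131 carriers had a mean of at least 5 CPM and were compared between libraries as the log2 ratio of (CPM + 1). The other 34, with means of 0.52 to 4.88 CPM, were kept as values only. The lowest mean among the compared carriers was 5.35 CPM, for SLC35A1, and the highest among the rest was 4.88 CPM, for SLC2A8. Carrier levels spanned a wide range, with a median mean level of 19.3 CPM over all 165 entries and 17 at 100 CPM or more. SLC25A5, the main ADP/ATP exchanger of proliferating cells, was highest, at 473, 452 and 515 CPM for siRNA 1, siRNA 2 and control. Next came SLC25A3, the mitochondrial phosphate carrier, at 424, 453 and 429 CPM. SLC1A5, a glutamine and neutral amino acid exchanger, stood at 321, 307 and 357 CPM.

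The ratios of the carriers were spread much like those of all genes. Their median log2 ratio was -0.07 with siRNA 1 and -0.05 with siRNA 2, beside -0.03 and -0.04 over all 10788 genes compared. With siRNA 1, 76 of 131 carriers lay within 0.2 of control, 58.0%, where 58.0% of all genes did. With siRNA 2, 77 did, 58.8%, where 62.1% of all genes did. Counting error alone gave the siRNA 1 ratios a median standard error of 0.081, and 0.15 at most. A ratio of at least 1.5-fold, 0.585 on the log2 scale, was used to single out carriers. With siRNA 1, 9 carriers were at least 1.5-fold lower, 6.87% of those compared, where 2.56% of all genes were. None was at least 1.5-fold higher, where 2.81% of all genes were. With siRNA 2, 3 carriers were at least 1.5-fold lower, 2.29%, where 1.85% of all genes were, so that share lay near the background. None was 1.5-fold higher, where 1.24% of all genes were. Below control in both libraries, by any amount, were 60 carriers, 45.8%, where 44.5% of all genes were. Above control in both were 35, 26.7%, where 31.4% of all genes were. Both ratios use the same control library, so their shared direction is not an independent check. The exact binomial test of recovered tags, with Benjamini-Hochberg adjustment over all genes, compares these libraries and not the conditions. It called 20 carriers higher and 43 lower with siRNA 1, and 18 higher and 43 lower with siRNA 2, or 48.1% and 46.6% of carriers where it called 52.5% and 48.3% of all genes.

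**Figure D1:**
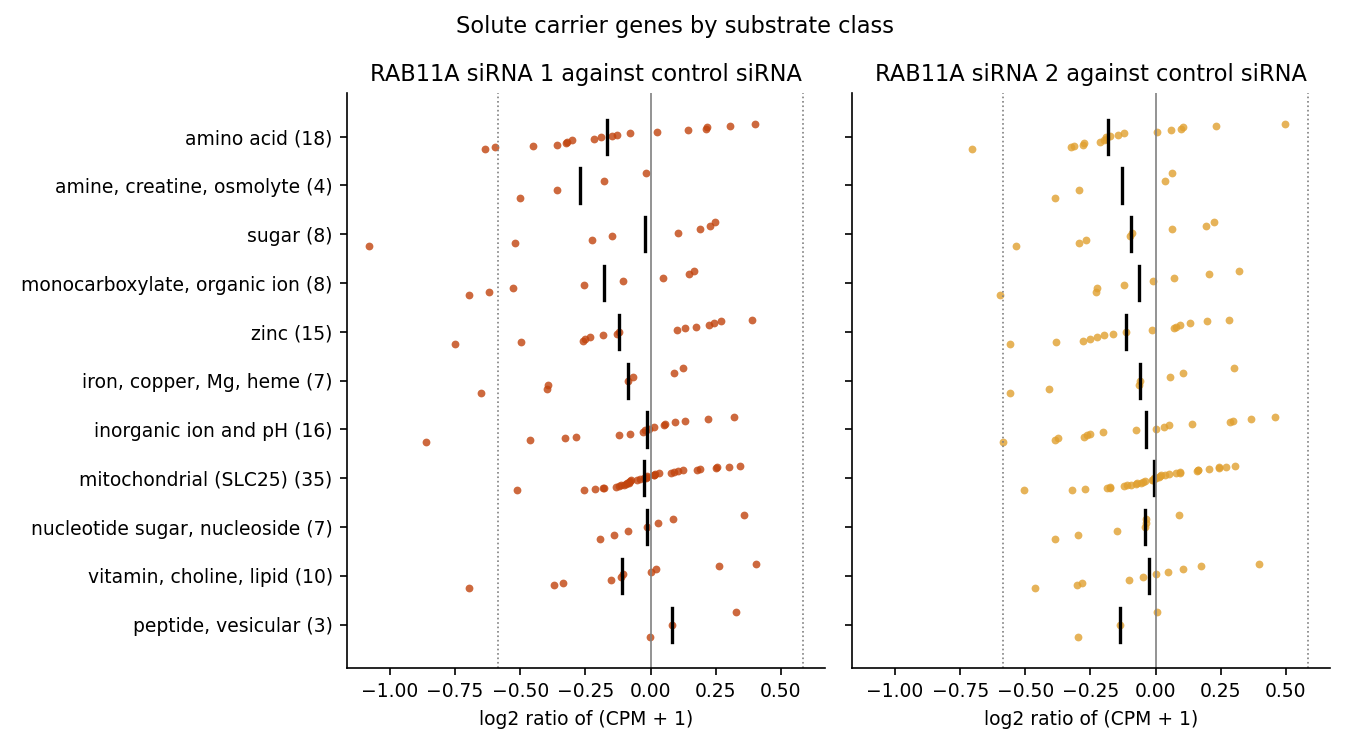
Log2 ratios of (CPM + 1) to the control siRNA library for the 131 carriers compared, siRNA 1 left and siRNA 2 right; each point is 1 gene, rows are substrate classes with their number of genes, black bars are class medians and dotted lines mark 1.5-fold. The lowest points are SLC2A3 with siRNA 1 (-1.08) and SLC38A7 with siRNA 2 (-0.71), and no point lies past the upper dotted line.

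The 9 carriers at least 1.5-fold lower with siRNA 1 came from 8 families and carry unlike substrates. SLC2A3, the high-affinity glucose transporter GLUT3, stood at 17.8, 32 and 38.7 CPM for siRNA 1, siRNA 2 and control (444, 800 and 967 tags). Its log2 ratio was -1.08 with siRNA 1 (counting standard error 0.079) and -0.27 with siRNA 2, and it was the 1 carrier at least 2-fold from control, where 0.519% of all genes were 2-fold lower with siRNA 1 and 0.371% 2-fold higher. The canonical SLC2A3 transcript lies at chr12:8071826-8088783 on the minus strand (GRCh37). SLC16A5, a monocarboxylate transporter family member, stood at 15.4, 15.7 and 24.3 CPM, with ratios of -0.62 and -0.60 (standard errors 0.089 each). It lies at chr17:73084049-73102257 on the plus strand. SLC16A5 was among the 2 carriers at least 1.5-fold lower with both siRNAs, 1.53% of those compared, where 0.899% of all genes were. No carrier was at least 1.5-fold higher with both, where 0.825% of all genes were. No carrier was 2-fold higher or lower with siRNA 2, where 0.195% and 0.269% of all genes were, nor with both siRNAs, where 0.102% and 0.158% were. SLC16A5 did not reach the 1.5-fold limit in both libraries under the other scalings tried, nor did any other carrier.

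SLC39A9, the zinc transporter ZIP9, stood at 34.7, 39.8 and 59.1 CPM for siRNA 1, siRNA 2 and control. SLC33A1, which imports acetyl-CoA into the endoplasmic reticulum, stood at 40.4, 47.8 and 66.2 CPM. SLC31A1, the copper importer CTR1, stood at 27.4, 29.3 and 43.6 CPM. For these 3 genes the siRNA 2 library lay close above the siRNA 1 library and well below control, with siRNA 2 ratios of -0.56, -0.46 and -0.56. SLC7A11 and SLC7A1 are described with the amino acid carriers below. SLC22A18, an organic cation transporter homologue in an imprinted region of chromosome 11, stood at 6.24, 10.6 and 10.7 CPM, so that the siRNA 1 library alone was low (156, 266 and 268 tags). With siRNA 2 the third carrier at least 1.5-fold lower was SLC38A7, a lysosomal glutamine exporter, at 9.60, 7.88 and 13.5 CPM (240, 197 and 337 tags), with ratios of -0.45 and -0.71. For SLC7A11, SLC33A1, SLC39A9, SLC7A1, SLC31A1, SLC2A3, SLC16A5 and SLC38A7 both siRNA libraries lay below the control library.

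**Figure D2:**
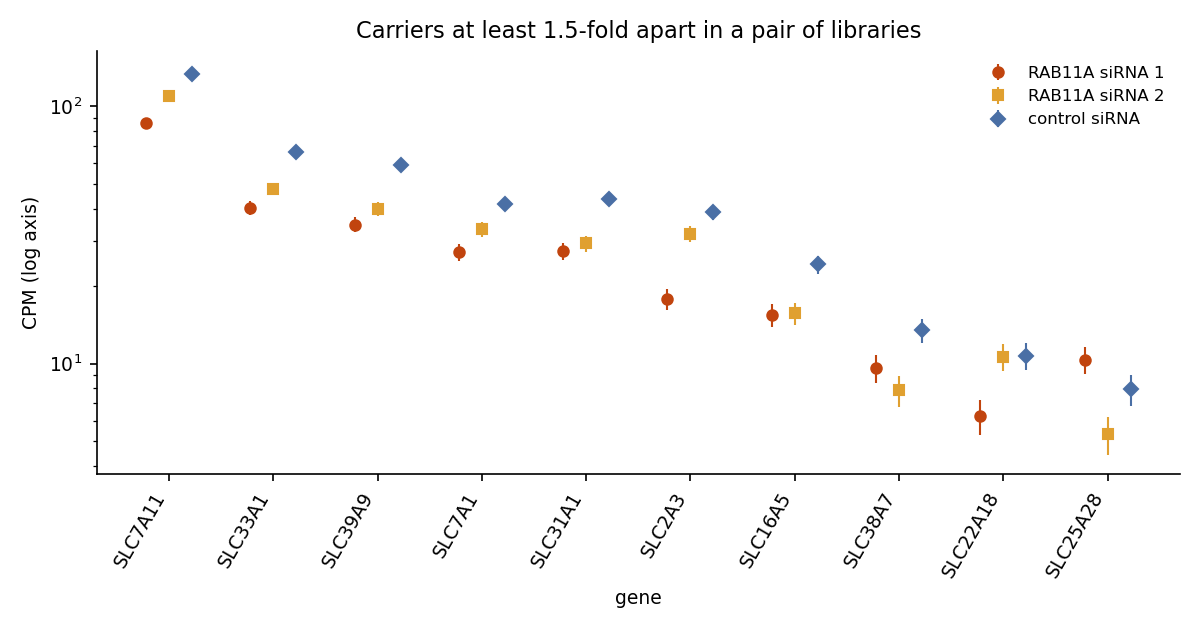
CPM on a log axis for 10 carriers at least 1.5-fold apart in any pair of libraries, with 1 library per point and bars giving 95% counting intervals (normal approximation). In 8 of the 10 both siRNA libraries lie well below control, SLC22A18 is at 6.24 CPM with siRNA 1 and near its control level with siRNA 2, and SLC25A28 is higher with siRNA 1 (10.4 CPM) than with siRNA 2 (5.32 CPM).

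Carriers of families 1, 3, 7, 36, 38 and 43 were grouped as amino acid carriers by family number. SLC43A3 is among them, though amino acids are not its known substrate. This class summed to 1528 CPM with siRNA 1, 1569 with siRNA 2 and 1776 with control, or 86.0% and 88.3% of control. Of 18 compared, 11 were below control in both libraries and 5 above in both, with medians of -0.17 and -0.18. A list of 10 carriers that ATF4 is known to induce was described as a group. SLC7A3 was not among the values used here, and the other 9 were all below control in both libraries. For the 8 of them compared, the median ratio was -0.31 with siRNA 1 and -0.28 with siRNA 2, with ranges of -0.63 to -0.15 and -0.39 to -0.18. Under both other scalings the 9 also lay below control, with medians of -0.29 and -0.23. Together they summed to 1084, 1112 and 1315 CPM for siRNA 1, siRNA 2 and control. The list was chosen with results of these libraries known, so its direction is a description.

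SLC7A11, the cystine/glutamate antiporter that feeds glutathione synthesis, stood at 86.0, 110.2 and 134 CPM for siRNA 1, siRNA 2 and control. Its ratios were -0.63 (counting standard error 0.039) and -0.28 (0.037), and the siRNA 1 library was the lowest. It lies at chr4:139085251-139163503 on the minus strand (GRCh37). SLC3A2, the heavy chain that pairs with SLC7A11 and SLC7A5, stood at 138, 152 and 173 CPM. SLC7A5, the large neutral amino acid transporter LAT1, stood at 241, 243 and 274 CPM. So the heavy chain and both light chains were below control in both libraries, SLC7A11 the furthest. SLC7A1, which imports arginine and lysine, stood at 27.2, 33.3 and 41.6 CPM, with ratios of -0.60 and -0.31. SLC38A2, a sodium-coupled carrier of small neutral amino acids, stood at 253, 249 and 313 CPM, and SLC1A4, an alanine and serine exchanger, at 10.2, 10.8 and 13.3 CPM. SLC6A9, a glycine transporter, stood at 5.92, 5.00 and 6.84 CPM. SLC43A1, a leucine carrier below the filter, stood at 1.68, 2.20 and 3.04 CPM. ATF4 itself, with 273, 303 and 363 CPM, had ratios of -0.41 and -0.26.

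**Figure D3:**
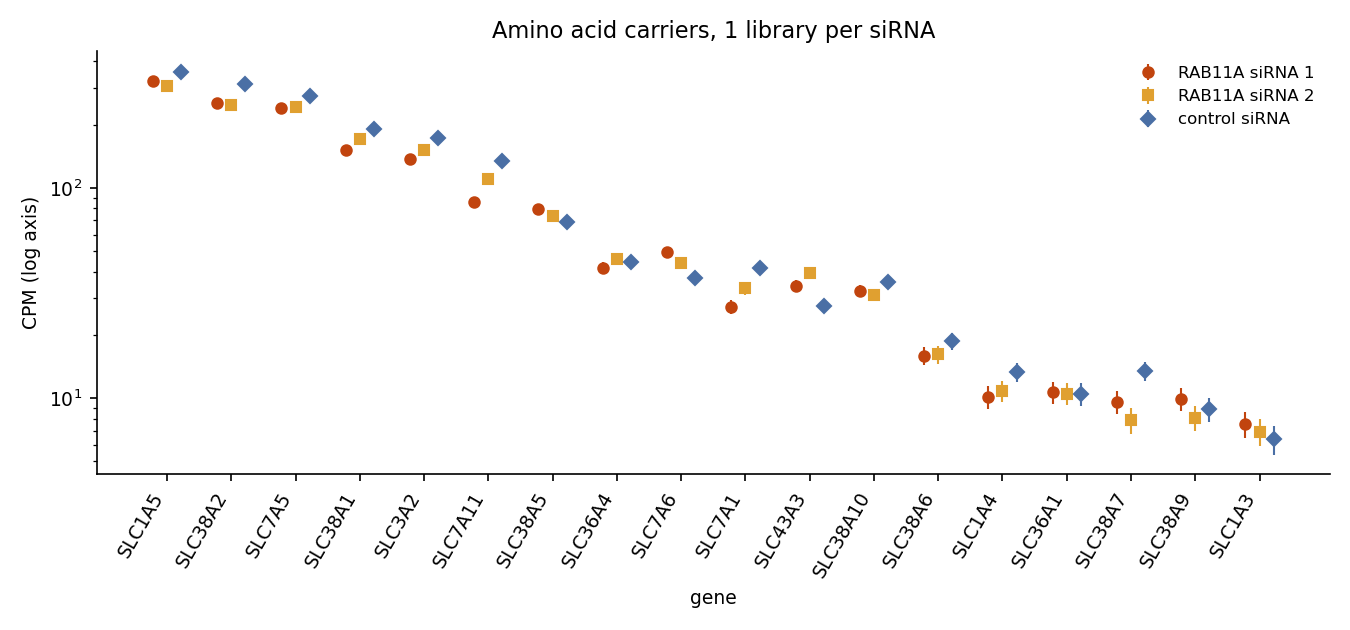
CPM on a log axis for the 18 carriers compared in the amino acid class, which was set by family number, ordered by mean level. Each point is 1 library, with bars giving 95% counting intervals (normal approximation). Control lies above both siRNA libraries for SLC1A5, SLC38A2, SLC7A5, SLC38A1, SLC3A2, SLC7A11 and SLC7A1, and below both for SLC38A5, SLC7A6 and SLC43A3.

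ATF4 pairs with C/EBP factors on composite elements, written here as TGATGNAA and searched on both strands in RefSeq promoter windows (GRCh38.p14) of 250 bases before to 50 after each start. Windows were found for 132 of the 164 carrier symbols, some with several starts. The element was present in 11 of these carriers, 8.33%, and in 4.46% of all 27305 genes with windows. Of 8 ATF4-list members with a window, 4 held it. The list holds carriers that ATF4 is known to induce, so this count is not independent of how the list was made. Other motifs searched the same way were also present in a larger share of carriers than of all genes. The antioxidant response element, written TGACNNNGC, was in 24.2% of carriers and 16.1% of genes, and the hypoxia response element, written ACGTG, in 40.2% and 24.9%. Each was in 4 of the 8 ATF4-list members as well. The elements differ in their share of all genes, so these counts of 4 were not compared with each other. The part of these elements in the results was not tested. The lines below show 30 bases about each ATF4 element, 5′ to 3′ on the gene's strand with the element in capitals. They cover the 6 carriers with it that were compared and lay below control in both libraries.
SLC1A4: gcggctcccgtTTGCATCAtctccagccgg
SLC1A5: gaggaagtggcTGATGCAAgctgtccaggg
SLC3A2: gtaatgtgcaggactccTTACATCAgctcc
SLC7A1: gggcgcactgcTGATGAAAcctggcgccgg
SLC38A1: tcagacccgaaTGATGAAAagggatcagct
SLC11A2: ttctttttcttTTCCATCAggcaccaagtc

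In the order shown these windows lie at chr2:64989381-64989410 (plus strand), chr19:46784893-46784922 (minus), chr11:62881719-62881748 (plus), chr13:29595663-29595692 (minus), chr12:46266502-46266531 (minus) and chr12:51028865-51028894 (minus). The other 5 carriers with the element were SLC1A3, SLC9A9, SLC25A11, SLC27A5 and SLC39A11. SLC27A5, which activates bile acids and fatty acids, was above control in both libraries, at 12.6, 12.5 and 9.28 CPM for siRNA 1, siRNA 2 and control. SLC1A3, a glutamate transporter, stood at 7.56, 6.92 and 6.36 CPM. Of the elements printed above, those of SLC1A4, SLC1A5 and SLC11A2 came from start 2 of 2, 3 of 3 and 4 of 4. Those of SLC3A2, SLC7A1 and SLC11A2 begin after the RefSeq start, at bases 38, 8 and 4, and the others begin before it. Whether the counted tags came from these starts was not tested. A match in these windows is a description of sequence and was not tied to binding. SLC7A11, SLC2A3 and SLC16A5 had no window in the table used.

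Amino acid carriers outside that list lay on both sides of control, SLC38A7 the furthest below with siRNA 2. SLC38A1, a glutamine importer, stood at 152, 172 and 190 CPM for siRNA 1, siRNA 2 and control. SLC43A3, grouped here only by its family number, stood at 34.3, 39.3 and 27.6 CPM. It had the highest siRNA 2 ratio of any carrier compared (0.50, counting standard error 0.069), and 0.30 with siRNA 1. SLC7A6, an arginine and neutral amino acid exchanger that also pairs with SLC3A2, stood at 49.7, 44 and 37.4 CPM, above control in both libraries and opposite to SLC7A5 and SLC7A11. SLC36A1 and SLC38A9, lysosomal carriers tied to amino acid sensing by mTORC1, had ratios of 0.02 and 0.14 with siRNA 1 and 0.01 and -0.12 with siRNA 2. Among the 4 carriers of family 6, SLC6A8, the creatine transporter, stood at 70.7, 81.8 and 100.4 CPM, with ratios of -0.50 and -0.29. SLC6A6, the taurine transporter, stood at 77.4, 82.0 and 78.4 CPM and differed little between libraries.

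In the glucose family the main transporter and SLC2A3 lay on opposite sides of control. SLC2A1, the widely expressed GLUT1, stood at 194, 187 and 164 CPM for siRNA 1, siRNA 2 and control (ratios 0.25 and 0.19, counting standard errors 0.030 and 0.031). The 7 listed members of family 2 summed to 227, 240 and 221 CPM, so the lower SLC2A3 was not seen in the family total. SLC5A3, a sodium-coupled inositol carrier, stood at 149, 148 and 127 CPM, but its values are identical to those of MRPS6 and AP000318.2, and its tags cannot be told from theirs. SLC50A1, a sugar carrier of the Golgi, stood at 48.1, 49.7 and 53.3 CPM, values shared with RP11-540D14.6. SLC45A4 stood at 7.72, 7.64 and 11.5 CPM, with ratios of -0.52 and -0.54.

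Monocarboxylate carriers of family 16 summed to 226, 264 and 290 CPM for siRNA 1, siRNA 2 and control. SLC16A3, the lactate exporter MCT4 of glycolytic cells, stood at 137, 169 and 198 CPM, with ratios of -0.53 and -0.23 (counting standard errors 0.032 and 0.030). SLC16A1, the lactate and pyruvate carrier MCT1, stood at 47.2, 53.3 and 42.5 CPM, above control in both libraries. SLC10A3 stood at 50.8, 51.8 and 60.8 CPM. The 3 carriers induced by hypoxia, SLC2A1, SLC2A3 and SLC16A3, did not share a direction.

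**Figure D4:**
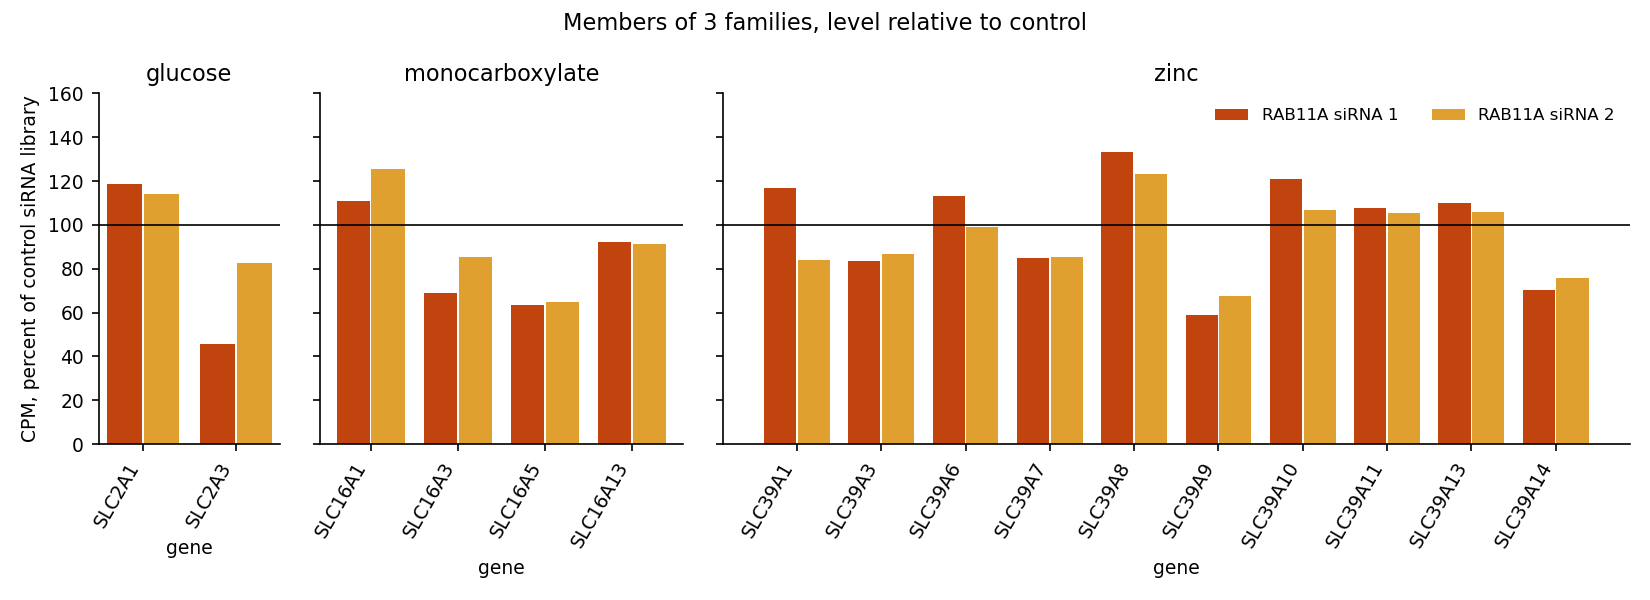
Bars give the level in each siRNA library as a percent of the control library, from 0, for members described of the glucose, monocarboxylate and zinc importer families with a mean of at least 5 CPM. SLC2A3 (45.9% with siRNA 1), SLC39A9 (58.8%) and SLC16A5 (63.6%) lie lowest, while SLC2A1, SLC16A1 and SLC39A8 lie above 100 with both siRNAs.

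All 10 zinc importers listed were compared, and 4 were below and 4 above control in both libraries. SLC39A3, among those below, has values identical to those of AC006538.4, so its tags cannot be told from those of that entry. Besides SLC39A9, SLC39A14, which also carries iron and manganese, was lower, at 24.9, 26.96 and 35.5 CPM for siRNA 1, siRNA 2 and control (ratios -0.50 and -0.38). SLC39A8, its close relative, was higher, at 17.3, 15.96 and 12.96 CPM (ratios 0.39 and 0.28). SLC39A1, the importer with the highest level, stood at 145, 104 and 124 CPM, above control with siRNA 1 and below it with siRNA 2. SLC39A10 stood at 57.4, 50.6 and 47.4 CPM. Zinc exporters of family 30 summed to 204, 206 and 230 CPM, led by SLC30A9 at 93.9, 87.8 and 106.6 CPM. SLC30A5, which loads zinc into the secretory pathway, stood at 54.7, 60.6 and 65.7 CPM. SLC30A1, the surface exporter that zinc induces through MTF1, was below the filter, at 3.88, 4.2 and 4.8 CPM.

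Among 10 iron and heme carriers, 9 were compared, with medians of -0.08 and -0.06. SLC11A2, which takes iron across the endosomal membrane, stood at 8.56, 8.48 and 11.6 CPM for siRNA 1, siRNA 2 and control (ratios -0.40 and -0.41). SLC40A1, the iron exporter ferroportin, stood at 8.16, 9.32 and 8.60 CPM. SLC48A1, which moves heme out of endosomes and lysosomes, stood at 44.2, 55.9 and 58.4 CPM. The mitochondrial iron importers SLC25A37 and SLC25A28 lay unlike each other with siRNA 2, at 99.1% and 66.8% of control. SLC25A37 stood at 33.7, 30.6 and 30.8 CPM, while SLC25A28 stood at 10.4, 5.32 and 7.96 CPM (259, 133 and 199 tags). SLC25A38, which imports glycine into mitochondria for heme synthesis, stood at 18.7, 19.1 and 19.8 CPM. SLC46A1, a proton-coupled folate and heme carrier, was below the filter, at 1.44, 0.68 and 1 CPM (36, 17 and 25 tags). The magnesium carriers SLC41A1 and SLC41A2 lay above control in both libraries. SLC41A1 stood at 23.96, 27.2 and 21.9 CPM.

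Of the 16 ion and pH carriers compared, 8 were below and 7 above control in both libraries. SLC20A1, a sodium-coupled phosphate importer, stood at 156, 164 and 215 CPM for siRNA 1, siRNA 2 and control (ratios -0.46 and -0.39, counting standard errors 0.030 and 0.030). Its relative SLC20A2 stood at 36.7, 42.0 and 34.3 CPM, above control in both. SLC4A2, a chloride/bicarbonate exchanger, stood at 102.6, 106.8 and 103 CPM and differed little. Family 9 holds sodium/proton exchangers. SLC9A7, which acts in the trans-Golgi network, stood at 23.1, 28.3 and 22.9 CPM, and SLC9A8 at 7.68, 7.2 and 8.44 CPM. SLC12A9 stood at 11.4, 12.7 and 8.96 CPM, with ratios of 0.32 and 0.46. SLC12A5 carries values identical to those of RP11-465L10.7, so its siRNA 2 ratio of 0.37 cannot be assigned to it.

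Carriers of family 25, all classed here as mitochondrial, were the largest class, with 39 entries. They summed to 2077, 2123 and 2156 CPM for siRNA 1, siRNA 2 and control, or 96.3% and 98.5% of control. Of 35 compared, 12 were below control in both libraries, 7 above in both and 16 neither, with medians of -0.03 and -0.01. None was 1.5-fold from control with either siRNA. SLC25A39, which imports glutathione, stood at 74.2, 70.0 and 79.2 CPM, and SLC25A1, the citrate carrier, at 40.0, 46.6 and 37.6 CPM. SLC25A4, the ADP/ATP exchanger of muscle, stood at 16.9, 21.8 and 18.3 CPM, far below SLC25A5. The 2 entries named SLC25A10 stood at 196, 200.5 and 198 CPM and at 173, 178 and 176 CPM. The second entry is identical to MRPL12, a mitochondrial ribosomal protein gene, so neither can be read as the dicarboxylate carrier alone, and it is left out of the sums. SLC25A53 had ratios of -0.51 and -0.12.

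The remaining classes held few carriers past small ratios. Among vitamin, choline and lipid carriers SLC44A2, a choline transporter, stood at 85.8, 70.2 and 85.6 CPM for siRNA 1, siRNA 2 and control. SLC19A1, the reduced folate carrier, stood at 38.5, 31.96 and 31.92 CPM, and SLC27A1, a fatty acid transport protein, at 9.20, 12.6 and 12.2 CPM. The nucleoside transporter SLC29A1 stood at 50.4, 41.6 and 39.1 CPM, with ratios of 0.36 and 0.09. Of nucleotide sugar carriers, SLC35A2, which supplies UDP-galactose to the Golgi, stood at 28.6, 26.6 and 32.9 CPM, and SLC35A3, which supplies UDP-N-acetylglucosamine, at 38.3, 39.6 and 40.8 CPM. Their relative SLC35A4 stood at 29.6, 22.7 and 29.9 CPM. The lysosomal peptide and histidine carriers SLC15A4 and SLC15A3 stood at 27.4, 20.8 and 25.8 CPM and at 10.6, 7.40 and 8.24 CPM. SLC17A5, the lysosomal sialic acid exporter, stood at 14.96, 15.04 and 15 CPM. Of the 6 carriers on the lysosomal list, which does not hold SLC38A7, 1 was below and 1 above control in both.

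Setting the siRNA 1 library against the siRNA 2 library leaves the control out. SLC25A28 was at least 1.5-fold higher with siRNA 1 than with siRNA 2 (log2 ratio 0.85, counting standard error 0.13), where 0.899% of all genes were. SLC2A3 (-0.81, standard error 0.082) and SLC22A18 (-0.69, standard error 0.13) were at least 1.5-fold lower, where 0.695% of all genes were. These are 0.763% and 1.53% of the carriers compared. None was 2-fold higher or lower, where 0.167% and 0.185% of all genes were. SLC39A1 (0.48), SLC15A3 (0.47), SLC15A4 (0.38) and SLC35A4 (0.37) were higher with siRNA 1, each with siRNA 2 below control. SLC27A1 (-0.42), SLC6A15 (-0.39), SLC25A53 (-0.39) and SLC7A11 (-0.35) were lower with siRNA 1. The median over the 131 carriers was -0.02, beside 0.02 over all genes.

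**Figure D5:**
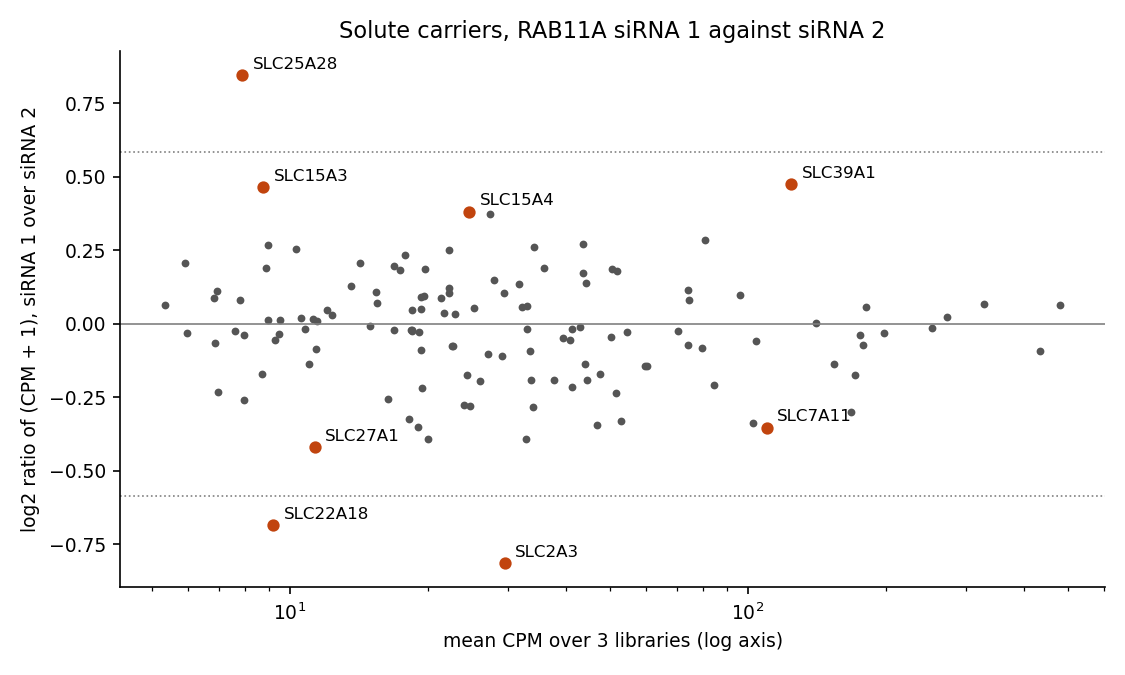
Log2 ratio of (CPM + 1), siRNA 1 over siRNA 2, against the mean CPM over the 3 libraries on a log axis, 1 point per carrier; dotted lines mark 1.5-fold and red points are named. SLC25A28 lies above the upper line, and SLC2A3 and SLC22A18 lie below the lower line.

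Sequences that pair with the siRNA 1 seed occurred among the lower carriers. The 7 bases GATGGAA, the DNA form of the capitals shown above for siRNA 1, were searched in the canonical 3′ UTRs of compared genes (GENCODE on GRCh37). They were present in 19 of 130 carriers with a UTR, 14.6%, and in 14.7% of all 9603 genes. Of the 9 carriers at least 1.5-fold lower with siRNA 1, 4 held them, SLC2A3, SLC7A1, SLC31A1 and SLC39A9. The share with a match among all genes at least 1.5-fold lower was not computed. The median siRNA 1 ratio was -0.12 over carriers with the match and -0.03 over those without, beside -0.07 and -0.02 over all genes. The bases TTGCAGA, for siRNA 2, were present in 16 of 130 carriers, 12.3%, in 16.1% of all genes, and in 0 of the 3 carriers lower with siRNA 2. The median siRNA 2 ratio was -0.06 over carriers with that match and -0.04 over those without, beside -0.049 and -0.046 over all genes. The part of these matches in the results was not tested. Of the 4, SLC7A1, SLC31A1 and SLC39A9 also had siRNA 2 ratios of -0.31, -0.56 and -0.56, and SLC2A3 -0.27. The lines below show 30 bases about the first match of 3 of these carriers, on the transcript strand, with the 7 bases in capitals.
SLC7A1: tcaggaagcagGATGGAAagatgcactcag
SLC31A1: cctgggtcagtGATGGAAaggggttaactt
SLC39A9: ttctcagggaaGATGGAAtttagttttaag

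These sites lie at chr13:30084169-30084198 (minus strand), chr9:116023146-116023175 (plus) and chr14:69925584-69925613 (plus) of GRCh37. SLC39A9 had 3 matches in its UTR, and SLC7A1 and SLC31A1 had 1 each.

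Of 27 partners and regulators of carriers, 21 were compared, with 10 above and 5 below control in both libraries. NEDD4L, a ubiquitin ligase that removes carriers and channels from the surface, stood at 129.8, 104.6 and 74.6 CPM for siRNA 1, siRNA 2 and control (ratios 0.79 and 0.48, counting standard errors 0.041 and 0.043). CD44, an adhesion receptor that stabilizes SLC7A11 at the surface, stood at 111, 107 and 78.7 CPM. MPC1, a subunit of the mitochondrial pyruvate carrier, stood at 71.2, 78.4 and 61.0 CPM. BSG, the chaperone that SLC16A1 and SLC16A3 need to reach the surface, stood at 599, 535 and 651 CPM. TXNIP, which promotes uptake of SLC2A1 from the surface, was below the filter, at 3.08, 1.80 and 4.80 CPM (77, 45 and 120 tags).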

How the data were processed

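RNA from 3 libraries of EBC-1 cells was measured by CAGE. CPM values by gene and strand were deposited in a single table whose 3 columns were matched to libraries by name. Genome build hg19, BWA and HISAT2 are listed, per the submitters' processing notes. The role of each tool and the rule that assigned tags to genes are not given in sources used here. The deposited CPM values were whole multiples of the value of 1 tag for 100.0% of values in each library, within 0.005 CPM, and whole tags were recovered from them. Every listed gene reached at least 0.52 CPM in at least 1 library. No carrier had a value of 0.

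Ratios used log2(CPM + 1), which understates low genes, with a minimum mean of 5 CPM; counting standard errors came from Poisson variance of tags and cover counting error only. Each group has 1 library, so no p-value is given. Members, lists and thresholds were chosen with earlier results of these data known. Carriers named were, in each comparison, the 6 highest and 6 lowest ratios, those 1.5-fold lower with both siRNAs, the 10 highest levels, up to 4 per class and the members of lists. Outside that rule, these were named after their values were seen: SLC1A3, SLC9A8, SLC30A1, SLC38A5, SLC39A3, BSG and CD68. A few genes are counted but not reported by name here.

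Alternatives changed the pseudocount (0.5 or 5 CPM), the filter (minimum mean 1 or 20 CPM, or none), the scaling (TMM of edgeR 4.0.16, or median ratios) and the limit (2-fold). Others were the exact binomial test, leaving out identical entries and limma 3.58.1 (R 4.3.3) with both siRNA libraries as 1 group. The first 50 bases of annotated transcripts were searched in GRCh37 with minimap2 2.31: of 164 entries searched (SLC25A53 was not), 0 had a canonical start that matched elsewhere with 2 or fewer mismatches, while 15 had another annotated start that did, SLC2A3, SLC6A8 and SLC7A5 among them. Leaving those out was added after seeing the data. Python 3.11.15 with pandas 2.3.3, scipy 1.17.1 and matplotlib 3.10.9 was used, and code was tested on simulated data.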

Additional observations from a re-analysis of the deposited data

How the results depend on the processing

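With siRNA 1 the count of carriers at least 1.5-fold lower was 9, and 7 to 10 under the filters, scalings and exclusions tried. It was 5 with a pseudocount of 5 CPM and 1 with a 2-fold limit. With siRNA 2 the count of 3 lower carriers became 0 with a pseudocount of 5 CPM, 1 at a minimum mean of 20 CPM, 1 under TMM, 1 under median ratios and 0 with a 2-fold limit. Lowering the filter to 1 CPM, or removing it, gave 1 higher carrier with siRNA 2, against 0. The 2 carriers lower with both siRNAs became 0 with a pseudocount of 5 CPM, 1 at 20 CPM, 0 under TMM, 0 under median ratios, 0 with a 2-fold limit and 0 with limma, which called 0 higher too. Limma at an unadjusted p under 0.05 gave 3 higher and 16 lower of 131 carriers, where it gave 624 higher and 887 lower of 10788 genes, and 6 and 9 genes after adjustment. Limma assumes that the lone control library varies as the siRNA libraries do. It also takes the difference between the 2 siRNAs as replicate error, though RAB11A stood at 5.53% of control with siRNA 1 and 16.8% with siRNA 2. For siRNA 1 against siRNA 2 the 1 higher carrier became 0 with a pseudocount of 5 CPM, at 20 CPM and with a 2-fold limit. The 2 lower ones became 1 with a pseudocount of 5 CPM, 4 at 1 CPM, 1 at 20 CPM, 4 with no filter, 0 with a 2-fold limit and 1 without carriers that have a copy of an annotated start, which drops SLC2A3. The exact binomial test called 20 higher and 43 lower with siRNA 1, and 18 and 43 with siRNA 2. It called 52.5% and 48.3% of all genes in these comparisons. Between the siRNAs it called 17 carriers higher and 30 lower, 35.9% of carriers where it called 36.8% of all genes (2312 higher and 1656 lower). In both against control it called 9 carriers higher and 32 lower. The count of all genes called in both was not computed, so the 9 and 32 have no background to be set against. The other scalings shift the median of all genes by up to 0.045, so class medians nearer 0 than that carry no direction. No named carrier past 1.5-fold reversed under pseudocounts or scalings. Of 219 ratios of named carriers at any size, 14 changed sign under TMM and 15 under median ratios. Counts of carriers below or above control in both libraries were repeated under these scalings only for the ATF4 list. No paired analysis was possible because each group has 1 library. Besides the construction of each alternative, the cause was not tested. A carrier at 5 CPM rests on 125 tags per library, and spread between cultures was not measured.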

Other observations

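Carriers with other symbol forms, the families SLC35B to SLC35G and SLCO, were outside the set described. Of 20 listed, 19 were compared, 12 below and 5 above control in both siRNA libraries, with medians of -0.13 and -0.11. SLCO4A1, an organic anion transporter, stood at 36.4, 36.8 and 24.9 CPM for siRNA 1, siRNA 2 and control (log2 ratios 0.53 and 0.55). SLC35F6 stood at 57.4, 45.2 and 74.6 CPM (-0.37 and -0.71), and SLC35G2 at 9.80, 10.3 and 6.64 CPM (0.50 and 0.57). These 3 were named after their values were seen.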
